A study of Mus musculus with 18 samples.

Results

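The genes described are 9 transcription factors of the cardiac lineage, taken by symbol from the deposited expression tables of 51435 genes: the GATA zinc-finger factors Gata4 and Gata6, the homeobox factors Nkx2-5 and Irx4, the T-box factors Tbx5 and Tbx20, the basic helix-loop-helix factors Hand2 and Hey2, and the nuclear receptor Nr2f2 (COUP-TFII). All 9 had a row in both tables and all 9 passed the filter on low counts. They were measured by RNA-seq of poly(A) RNA from the left ventricle (LV) of 18 mice on a C57BL/6J background, 9 WT and 9 WWP2Mut/Mut, infused with angiotensin II (AngII, a hypertensive peptide hormone) at 500 ng/kg/min for 28 days from 8 weeks of age. The WWP2Mut/Mut mice carried a CRISPR/Cas9 deletion of 4 bp in exon 2 of Wwp2, which encodes an E3 ubiquitin ligase. This deletion disrupts the full-length and N-terminal isoforms of the gene and leaves the C-terminal isoform. Both groups received AngII, so every comparison is between genotypes in the stressed heart, and saline-treated hearts were not analysed here.

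These factors act together. In the embryonic heart GATA4, NKX2-5, TBX5 and TBX20 bind DNA and each other at the enhancers of sarcomere and ion channel genes, HAND2 serves the second heart field and the right ventricle, and the adult myocyte keeps most of them to maintain its identity. Some also mark a chamber. IRX4 and HEY2 are ventricular, with HEY2 repressing atrial genes, whereas NR2F2 is an atrial and venous factor and TBX5 is stronger in atria than in ventricles. A piece of LV cut with some atrium attached can therefore change their levels, and atrial transcript was followed through Myl7, the atrial regulatory myosin light chain.

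In the mouse genome (GRCm38, GENCODE M21) the members lie on 9 different chromosomes, with Gata4 at chr14:63198922-63271692, Nkx2-5 at chr17:26838664-26845009, Irx4 at chr13:73260479-73269608, Tbx5 at chr5:119832668-119885219, Tbx20 at chr9:24718138-24774303, Hand2 at chr8:57320983-57324633, Hey2 at chr10:30832359-30842801 and Nr2f2 at chr7:70351944-70366735. All are protein-coding. Gata6, Hand2 and Nr2f2 each overlap a gene on the opposite strand (1010001N08Rik, Hand2os1 and B130024G19Rik). The library kit keeps strand, but whether the quantification used it is not given in the sources used here, so the reads of these 3 overlapping pairs may not be fully separated.

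Promoter windows of 300 bases ran from 250 bases before to 50 bases after the annotated start. Windows of 6 members were examined in RefSeq (GRCm38.p6), and Gata4, Gata6 and Tbx5 were not among them. Those of Tbx20, Hand2 and Nr2f2 are shown because Tbx20 varied most between mice, Hand2 had the largest positive difference between genotypes and Nr2f2 the lowest exact p on TPM. Capitals mark matches on either strand to a GATA site, whose letters were AGATAA or AGATAG, or the same with a first letter of T in place of A.
Tbx20, chr9:24774254-24774553, minus strand: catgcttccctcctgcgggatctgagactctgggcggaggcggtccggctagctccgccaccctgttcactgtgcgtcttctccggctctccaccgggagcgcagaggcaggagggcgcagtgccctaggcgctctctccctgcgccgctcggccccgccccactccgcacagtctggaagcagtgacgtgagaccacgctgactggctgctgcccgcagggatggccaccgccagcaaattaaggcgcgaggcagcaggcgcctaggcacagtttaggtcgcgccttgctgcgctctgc
Hand2, chr8:57320733-57321032, plus strand: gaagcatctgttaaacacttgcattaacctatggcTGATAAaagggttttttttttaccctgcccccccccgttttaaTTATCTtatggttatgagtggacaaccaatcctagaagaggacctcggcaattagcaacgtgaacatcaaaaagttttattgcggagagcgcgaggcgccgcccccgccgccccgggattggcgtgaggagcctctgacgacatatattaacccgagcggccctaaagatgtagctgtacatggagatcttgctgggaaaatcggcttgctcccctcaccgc
Nr2f2, chr7:70366697-70366996, minus strand: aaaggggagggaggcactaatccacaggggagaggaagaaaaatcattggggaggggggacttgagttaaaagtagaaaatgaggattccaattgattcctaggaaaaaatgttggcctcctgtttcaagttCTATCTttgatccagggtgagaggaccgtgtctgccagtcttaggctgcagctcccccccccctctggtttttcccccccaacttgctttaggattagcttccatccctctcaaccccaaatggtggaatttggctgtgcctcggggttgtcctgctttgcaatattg
The Hand2 window held 2 GATA matches, starting 215 and 172 bases before the start, and the Nr2f2 window held 1, at 118 bases before it. The windows of Tbx20, Nkx2-5, Irx4 and Hey2 held none. Of 32851 mouse promoters of the same length, 29.8% held at least 1 GATA match. None of the 6 windows held a T-box half-site (AGGTGT, in 13.7% of promoters), an NKX2-5 site (TNAAGTG, 11.5%) or a HEY E-box (CACGTG or CACGCG, 15.4%). The share of G and C was 72.0% for Hey2, 70.7% for Irx4 and 68.3% for Tbx20, against 51.7% for Nkx2-5, 50.3% for Hand2 and 49.7% for Nr2f2 and a median of 52.7% over all promoters. Tbx20 and Hand2 thus stand for both kinds of window, and these matches describe letters only.

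The libraries held 24566994 to 37451087 counts, with a median of 31168997, so the least abundant member, Hey2, still rested on 65 to 147 counts in each WT mouse and 79 to 145 in each WWP2Mut/Mut mouse. Wwp2 itself (chr8:107436365-107558595) was at 5.09 ± 0.600 TPM (SD, n = 9) in WT and 1.72 ± 0.528 TPM (n = 9) in WWP2Mut/Mut hearts, with no overlap between the groups (exact permutation test, p = 4.11e-05, the smallest that 9 against 9 allows). Cardiomyocyte markers summed to 31225 to 43919 TPM in every mouse and Myl2, the ventricular light chain, was between 15460 and 25644 TPM. Myl7 ranged from 0.09 to 338 TPM: 5 mice (WT 45-1, 43-3 and 84-2, WWP2Mut/Mut 8-2 and 22-3) had 48.7 TPM or more, and the other 13 had 7.14 TPM or less. Where mice were left out of a fit for Myl7, the limit was 5 times the median, which takes in 6 mice, those 5 and WWP2Mut/Mut 53-1 (7.14 TPM). Liver markers summed to 0.21 to 218 TPM in WT and 0.82 to 38.6 TPM in WWP2Mut/Mut hearts, 6 of 6 were lower in the mutant at an unadjusted p under 0.05 and none after adjustment (edgeR). The deposited sample table also gives a gene body coverage fraction per library, whose definition is not given in the sources used here. It ranged from 2.88% to 5.40% and was 3.87 ± 0.861% in WT and 4.01 ± 0.825% in WWP2Mut/Mut hearts (SD, n = 9 each, exact permutation test, p = 0.720).

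The first question was whether the transcript levels of these factors differed with loss of the full-length and N-terminal WWP2 isoforms. No member was called. Of the 9 members, 0 passed a false discovery rate (FDR) of 0.05 (edgeR, quasi-likelihood, adjusted for lane and RNA concentration), and 0 reached an unadjusted p of 0.05. Over all 24804 genes tested, 1 (0.00403%) was called, and 908 had an unadjusted p under 0.05. The median log2 fold change was 0.01 over the members and -0.01 over all genes. In bulk tissue, fewer cells of a type and less RNA per cell cannot be told apart. Values of the members are given below in TPM (a level per length of transcript). Differences are log2 fold changes of counts, WWP2Mut/Mut over WT. The standard error (SE) and approximate 95% interval were derived from edgeR output.

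Gata4, the zinc-finger factor that drives hypertrophic gene expression in the adult heart, ranged from 14.99 to 49.32 TPM in WT with a median of 34.23, and from 19.02 to 35.97 TPM in WWP2Mut/Mut hearts with a median of 24.74. The 3 highest values belonged to WT mice 43-3, 45-1 and 84-2, all with much Myl7, but the lowest was also WT (16-1) and the groups overlapped. The log2 fold change was -0.13 (SE 0.140, interval -0.43 to 0.16, adjusted p = 1 by edgeR with Benjamini-Hochberg adjustment). On TPM alone the means were 32.1 ± 10.2 and 26.0 ± 5.68 (SD, n = 9 each, exact permutation test, p = 0.136).

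Gata6 (chr18:11052064-11085635), its closest partner in the myocardium and also a factor of smooth muscle, lay between 3.50 and 13.31 TPM in WT (median 9.24) and between 4.41 and 11.93 TPM in WWP2Mut/Mut hearts (median 7.16). No heart lay between 7.16 and 9.24 TPM, both genotypes had mice on either side of that gap, and the ranges overlapped almost fully. Its log2 fold change was 0.0094 (SE 0.215), with an interval from -0.44 to 0.46, and its sign turned under several alternatives.

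Tbx20, a T-box factor that adult myocytes need to maintain contractility, showed the widest spread of the members. It ranged from 1.71 to 9.14 TPM in WT (median 4.77) and from 2.02 to 6.92 TPM in WWP2Mut/Mut hearts (median 2.64). Of the mutant hearts, 5 lay between 2.02 and 2.64 TPM and the other 4 between 4.17 and 6.92 TPM, whereas the WT values were spread over the range. Between genotypes the log2 fold change was -0.28 (SE 0.310), and its interval of -0.93 to 0.37 was the widest of the 9. As a ratio the interval ran from 0.526 to 1.30, so the model left the level of Tbx20 in mutant hearts poorly bounded. With Alb in the model the estimate was -0.69 (edgeR, adjusted p = 0.706).

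Tbx5, the T-box factor of the atria and left ventricle, ranged from 1.39 to 6.57 TPM in WT (median 3.33) and from 1.53 to 5.12 TPM in WWP2Mut/Mut hearts (median 2.53). The highest and the second highest values were in mice with much Myl7, WT 45-1 and WWP2Mut/Mut 22-3. The log2 fold change was 0.0041 (SE 0.234, interval -0.49 to 0.50).

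Nkx2-5, the homeobox factor expressed from the first cardiac progenitors onward, was the steadiest member, with a coefficient of variation of 16.3% over the 18 mice against 50.6% for Tbx20. It lay between 19.93 and 34.42 TPM in WT (median 29.52) and between 22.26 and 35.00 TPM in WWP2Mut/Mut hearts (median 26.59). The highest and the lowest mouse differed by 1.76-fold. Its log2 fold change was 0.17 (SE 0.103), and the interval of -0.05 to 0.39 was the narrowest of the 9. Without WWP2Mut/Mut 53-1 the estimate was 0.04 and without covariates 0.06 (edgeR), and it turned to -0.0056 in limma on log2(TPM + 1) and to -0.0072 without the 6 mice above 5 times the median Myl7.

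Irx4, the ventricle-restricted Iroquois factor, ranged from 7.29 to 12.57 TPM in WT (median 9.55) and from 5.28 to 12.37 TPM in WWP2Mut/Mut hearts (median 8.62). Mouse 54-1 was the single mutant below every WT heart. Between genotypes the log2 fold change was 0.06 (SE 0.134, interval -0.22 to 0.34).

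Hand2, which encodes a basic helix-loop-helix factor of the second heart field and of cardiac fibroblasts, had the largest positive estimate. It ranged from 6.39 to 28.43 TPM in WT (median 10.92) and from 8.49 to 20.04 TPM in WWP2Mut/Mut hearts (median 13.98), so the highest and the lowest value were both WT. The log2 fold change was 0.35 (SE 0.226, interval -0.13 to 0.82, unadjusted p = 0.141 and adjusted p = 1 by edgeR). In edgeR the estimate was 0.53 (unadjusted p = 0.0304, adjusted p = 1) without WT 45-1. It was 0.64 (unadjusted p = 0.0300, adjusted p = 0.706 by edgeR) with Alb, the liver transcript, in the model. On TPM, the means were 13.1 ± 7.12 and 13.8 ± 4.44 (SD, n = 9 each, exact permutation test, p = 0.822). Its antisense neighbour Hand2os1 stood at 59.1 ± 7.61 TPM in WT and 54.9 ± 4.47 TPM in WWP2Mut/Mut hearts, above Hand2 in level, and its correlation with Hand2 from mouse to mouse was r = 0.03 (rho = 0.03, 18 mice, log2 CPM (counts scaled to library size by TMM), given as a description).

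Hey2, the Notch-responsive repressor of the ventricular compact layer, was the least abundant member, at 0.62 to 1.49 TPM in WT (median 1.01) and 0.64 to 1.41 TPM in WWP2Mut/Mut hearts (median 0.89). Its log2 fold change was 0.03 (SE 0.156, interval -0.30 to 0.35).

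Nr2f2, the orphan nuclear receptor of atria and veins, ranged from 1.62 to 3.76 TPM in WT (median 2.26) and from 1.2 to 2.80 TPM in WWP2Mut/Mut hearts (median 1.86). Mutant mice 53-1, 52-1 and 8-2, with 1.2, 1.53 and 1.58 TPM, lay below every WT heart, and WT 45-1 lay above all others. The means were 2.35 ± 0.611 and 1.87 ± 0.455 TPM (SD, n = 9 each), and the exact permutation test gave p = 0.069, the lowest of the 9 members on TPM as deposited, whose other values ran from 0.136 to 0.831. On TPM rescaled to the same total the exact p of Nr2f2 was 0.162, and on log2 CPM it was 0.392, above that of Hand2 (0.231) and Gata4 (0.289). In counts the log2 fold change was -0.19 (SE 0.141, interval -0.48 to 0.11, unadjusted p = 0.195 by edgeR), and it was 0.06 without the 6 mice above 5 times the median Myl7.

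**Figure D1:**
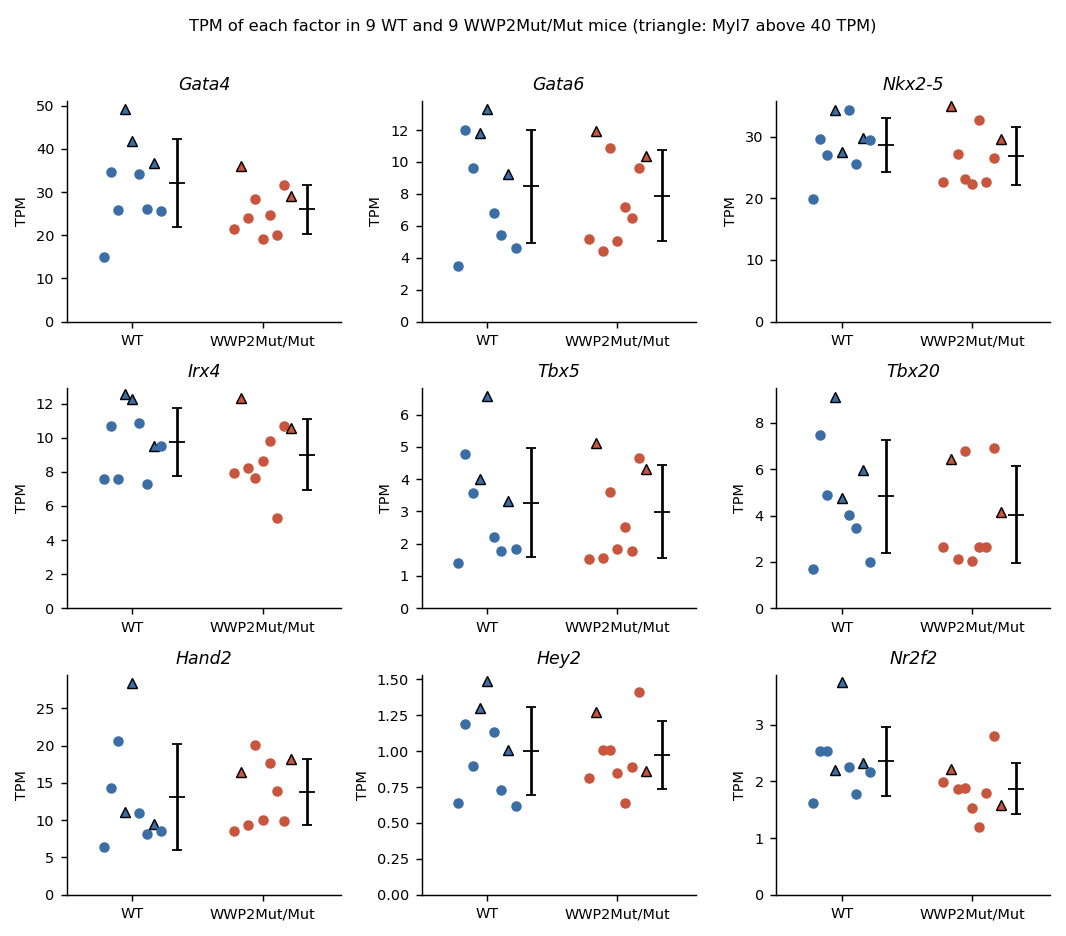
TPM (vertical axis, from 0) of each of the 9 factors in 9 WT (blue) and 9 WWP2Mut/Mut (red) mice, each point a mouse, triangles the 5 mice with Myl7 above 40 TPM, and black marks the group mean with SD. The groups overlap for every factor, and the triangles sit high for Gata4, Gata6 and Tbx5.

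The lanes of the sequencer held both genotypes, with 2 or 3 mice of each, and no member differed one way in all 4 lanes. Gata4 and Tbx20 were lower in the mutant in 3 of 4 lanes, Nkx2-5, Tbx5 and Hand2 higher in 3 of 4, and the remaining members split 2 and 2 (mean log2 CPM within each lane). With Myl7 in the model the log2 fold changes were -0.13 for Gata4, -0.02 for Gata6, 0.17 for Nkx2-5, 0.06 for Irx4, -0.04 for Tbx5, -0.32 for Tbx20, 0.35 for Hand2, 0.04 for Hey2 and -0.19 for Nr2f2, and 0 of 9 were called. Without those 6 mice above 5 times the median Myl7, 6 WT and 6 WWP2Mut/Mut mice remained and again 0 of 9 were called.

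With the gene body coverage fraction in the model, the genotype estimate of Tbx20 moved from -0.28 to -0.03 and its SE fell from 0.310 to 0.0889. The estimate of Gata6 moved from 0.0094 to 0.14 (SE from 0.215 to 0.113), that of Gata4 from -0.13 to -0.06 (SE from 0.140 to 0.0956) and that of Tbx5 from 0.0041 to 0.09 (SE from 0.234 to 0.174). Hand2 (0.40, SE 0.20, unadjusted p = 0.0577) and Nr2f2 (-0.24, SE 0.126, unadjusted p = 0.0777) were the members farthest from 0 in that edgeR fit, with adjusted p values of 0.932 and 0.936. Tbx20 was the member whose estimate and error depended most on this term.

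**Figure D2:**
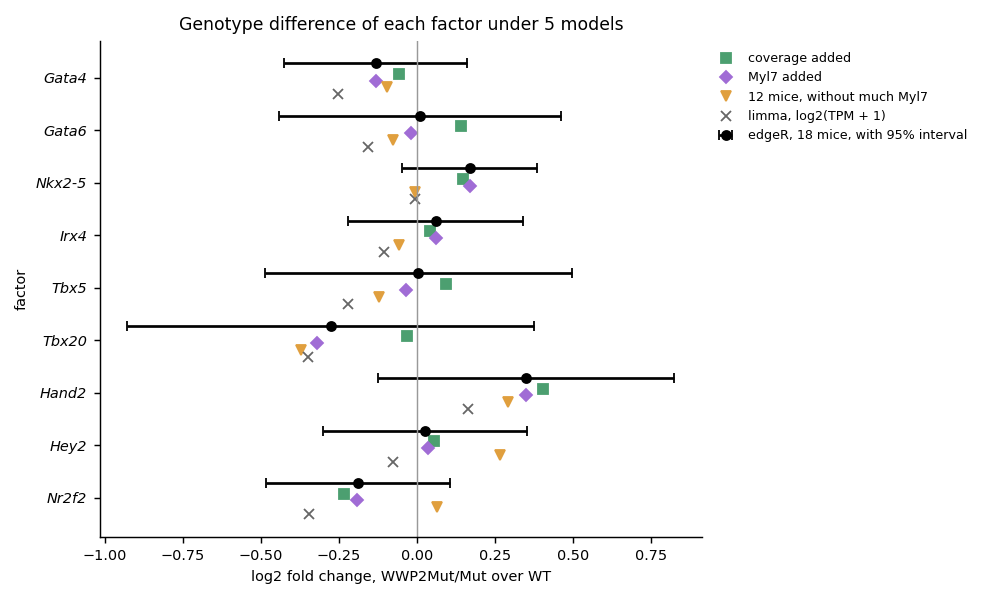
Log2 fold change (horizontal axis, WWP2Mut/Mut over WT) of each factor (vertical axis) in the edgeR model of 18 mice with its 95% interval (black circles) and under 4 other models (coloured symbols, estimates only). Every interval of the 18-mouse model crosses 0, and adding coverage moves Tbx20 to -0.03.

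The genes around these factors, from lists chosen with earlier results of these data known, gave the same count. Of 22 tested paralogs (other GATA, NK2, Irx, Tbx, Hand, Hey and NR2F genes and Hes1, a relative of the Hey genes), 31 partners and co-regulators, 23 other heart field and lineage factors and 30 target genes of the myocyte, 0 were called between genotypes in any list, and the median log2 fold change was -0.10, -0.04, -0.10 and -0.00049 in that order, against -0.01 over all genes. Among partners the most abundant were Ankrd1, a stress-induced ankyrin repeat co-factor (770.3 ± 222 and 630.0 ± 255 TPM, WT and WWP2Mut/Mut, SD, n = 9 each), Hopx, an atypical homeodomain protein (162.3 ± 24.1 and 138 ± 24.3 TPM), and Smyd1, a muscle methyltransferase (109 ± 40.2 and 93.1 ± 32.99 TPM). Among targets, Myl2, the ventricular regulatory light chain, stood at 21803 ± 2688 and 20333 ± 3398 TPM. Paralogs with a clear level in LV were Nr2f6 (16.6 TPM on average), Hes1 (8.61), Heyl (5.45), Irx3 (5.10) and Gata2 (4.86), whereas Hand1 and Gata1 averaged 0.0022 and 0.0044 TPM.

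Set in order of mean TPM over the 18 mice, the members ran Gata4 (29.1), Nkx2-5 (27.8), Hand2 (13.5), Irx4 (9.40), Gata6 (8.18), Tbx20 (4.43), Tbx5 (3.13), Nr2f2 (2.11) and Hey2 (0.987). Neighbours were compared within mice by an exact sign-flip permutation test, with Benjamini-Hochberg adjustment over the 8 pairs. Gata4 and Nkx2-5 could not be ordered (mean difference 1.32 ± 6.20 TPM, SD, Gata4 higher in 8 of 18 mice, adjusted p = 0.385), nor could Irx4 and Gata6 (1.21 ± 2.39 TPM, 13 of 18 mice, adjusted p = 0.0544). The other 6 neighbours differed, from Hand2 over Irx4 (4.06 ± 5.55 TPM, 13 of 18 mice, adjusted p = 0.00600) to Gata6 over Tbx20 and Nr2f2 over Hey2 (18 of 18 mice each, adjusted p = 3.05e-05). Without the 6 mice above 5 times the median Myl7, Nkx2-5 (25.9 TPM) stood above Gata4 (25.5 TPM, adjusted p = 0.714), and the pairs Hand2 and Irx4 (0.0727), Irx4 and Gata6 (0.112) and Tbx5 and Nr2f2 (0.157) were also not separated by the exact test.

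The second question was how much of the spread between mice followed atrial tissue. The Myl7 levels of the 5 mice with much of it were 338, 156 and 87.6 TPM in WT and 214 and 48.7 TPM in WWP2Mut/Mut hearts, and the genotypes did not differ in log2 Myl7 (exact permutation test, n = 9 each, p = 0.797). In edgeR, with log2(Myl7 TPM + 1) as a slope beside genotype, RNA concentration and lane, 15 of 24803 genes (0.0605%) were called, all higher with more Myl7, and 0 of the 9 members were among them. Those called included 3 of the 6 other fixed atrial markers, Sln (slope 1.11, SE 0.0666, adjusted p = 5.39e-08), Myl4 (0.75, SE 0.0504, adjusted p = 2.63e-07) and Dkk3 (0.37, SE 0.0369, adjusted p = 6.42e-05). The other 3 were not called: Nppa, which stressed ventricle also expresses, had a slope of -0.13 (SE 0.0536, unadjusted p = 0.0238 by edgeR), Kcnj3 one of 0.06 (SE 0.0280), and Bmp10 was at 0.03 TPM or less in every mouse. Some markers of other cells went with Myl7 as well, mostly before adjustment. Over all genes 2176 of 24803 had an unadjusted p under 0.05 in this edgeR fit. The summed conduction system markers (3.91 to 15.3 TPM) had r = 0.802 with log2 Myl7, and 4 of 6 had an unadjusted p under 0.05 in the edgeR fit, of which 1 was called. Of the erythrocyte markers, 5 of 5 were lower with more Myl7 at an unadjusted p under 0.05 and 0 were called (median slope -0.23, r = -0.437 for their sum). The summed fibroblast markers had r = 0.582 in TPM, but 0 of 6 had an unadjusted p under 0.05 in edgeR (median slope 0.0099). The part of these cells in the members' slopes was not tested.

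Tbx5 was the member nearest to a call: it rose by 0.13 on the log2 scale for each doubling of Myl7 + 1 (SE 0.0321, unadjusted p = 0.000674, adjusted p = 0.304 by edgeR). DESeq2 called it (0.13, adjusted p = 0.0409), as 1 of 75 genes (0.302%). In TPM the 5 mice with much Myl7 had 6.57, 5.12, 4.32, 4.00 and 3.33, and the other 13 had 1.39 to 4.79, so the sets overlapped. Without the 6 mice above 5 times the median Myl7 the slope of Tbx5 was -0.17. The slopes of Gata6 (0.09, SE 0.0359, unadjusted p = 0.0182), Gata4 (0.06, SE 0.0240, unadjusted p = 0.0278) and Hand2 (0.08, SE 0.0387, unadjusted p = 0.0503) were positive too, and none passed after adjustment (edgeR, adjusted p from 0.517 to 0.569). Without the same 6 mice Gata4 and Gata6 turned to -0.042 and -0.044. The mice left in that fit span only 0.09 to 2.27 TPM of Myl7, and 0 members had an unadjusted p under 0.05 (edgeR).

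For the other members no relation to Myl7 was detected in edgeR. The slope of Nr2f2, the atrial factor, was -0.0076 (SE 0.0267), that of Irx4 0.04 (SE 0.0253), that of Hey2 0.04 (SE 0.0292) and that of Nkx2-5 -0.0084 (SE 0.0205), with unadjusted p of 0.159 or more (edgeR). Tbx20 had a slope of 0.07 (SE 0.0612), which ran from 0.023 to 0.16 with a mouse left out. Among paralogs those closest to a call, picked after their slopes were seen, were Gata5 (0.49, SE 0.0934, adjusted p = 0.0753), at 0.25 TPM or less, and Irx2 (0.18, SE 0.0522).

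As correlations of log2 CPM with log2(Myl7 TPM + 1) over 18 mice, Tbx5 gave r = 0.643 (rho = 0.476), Gata4 r = 0.634 (rho = 0.527) and Gata6 r = 0.578 (rho = 0.490), with permutation p of 0.00442, 0.00492 and 0.0119 and adjusted p of 0.0221, 0.0221 and 0.0358 over the 9 members. No rho passed the adjustment (permutation test, lowest adjusted p = 0.134). Leaving out the 2 mice farthest from the median Myl7, r was 0.428, 0.636 and 0.443. Within the 13 mice with little Myl7 it was 0.135, -0.0608 and 0.212, so these relations rested on the contrast with the 5 other mice. Nr2f2 ran the other way, with r = -0.422 (rho = -0.457) over 18 mice and r = -0.790 (rho = -0.451) in those 13, and neither r passed (permutation test, adjusted p = 0.176 and 0.0954). By genotype the r of Tbx5 was 0.670 in WT and 0.657 in WWP2Mut/Mut hearts, and that of Gata4 was 0.726 and 0.477 (9 mice each). Myl7 and gene body coverage were themselves related in these mice (r = -0.416, rho = -0.317), and with coverage in the edgeR model the Tbx5 slope was 0.11 (SE 0.0230, adjusted p = 0.0761).

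**Figure D3:**
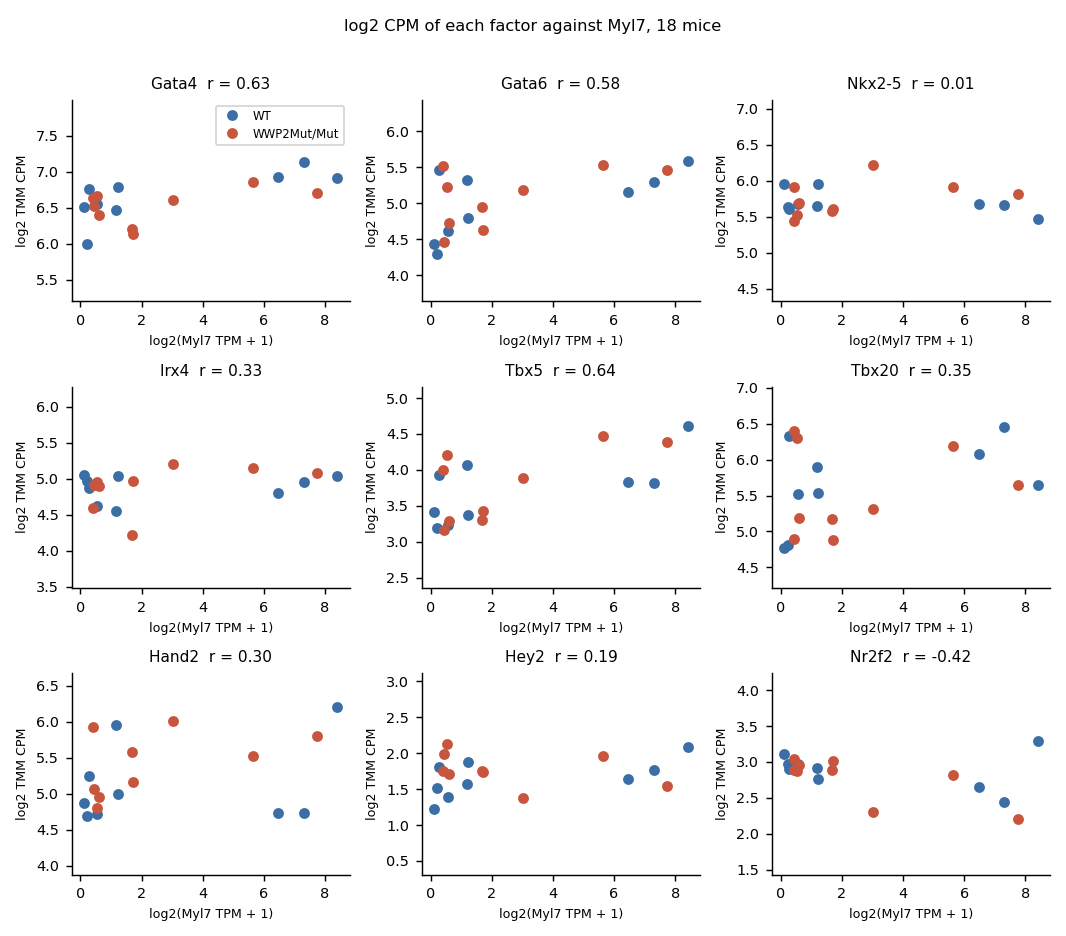
Log2 CPM of each factor (vertical axis, the same 2.8-unit height in all panels) against log2(Myl7 TPM + 1) (horizontal axis) in 18 mice, WT blue and WWP2Mut/Mut red, with Pearson r above each panel. The 5 mice at the right carry the upward relation of Tbx5 (r = 0.64), Gata4 (r = 0.63) and Gata6 (r = 0.58).

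The members were then set against the gene body coverage fraction of the library, a measure chosen after the members had been seen to be high together in mice with low coverage. The members' relations to it in these same mice restate that observation, so they are given as a description, with no p and as support for nothing. With genotype, RNA concentration and lane in the edgeR model, the slope was negative for 6 of the 9 members and positive for 3. Over all 24804 genes, 3994 (16.1%) were lower and 3678 (14.8%) higher with more coverage at an FDR of 0.05, so such relations were common in the whole transcriptome. In limma on log2(TPM + 1) the split over all genes was 6654 lower and 1317 higher. The median slope was -0.24 log2 units per percentage point of coverage over the members and 0.06 over all genes.

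Tbx20 had the steepest slope of the members, -0.75 (SE 0.0555, interval -0.87 to -0.64), a level of 0.593-fold for each percentage point. WT 43-3, with the lowest coverage (2.88%), had the highest Tbx20 (9.14 TPM), and WT 16-1, with the highest coverage (5.40%), the lowest (1.71 TPM). The correlation over 18 mice was r = -0.945 (rho = -0.944), with r = -0.965 in WT and -0.924 in WWP2Mut/Mut hearts. Leaving out the 2 mice farthest from the median coverage gave r = -0.941, and the 13 mice with little Myl7 gave r = -0.957. The 5 mutant hearts below 2.7 TPM of Tbx20 had coverage of 4.34% or more, and the other 4 had 3.245% or less.

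Gata6 fell by 0.47 log2 units per percentage point (SE 0.0718), Tbx5 by 0.40 (SE 0.113) and Gata4 by 0.24 (SE 0.0610). Their r with coverage was -0.823, -0.668 and -0.769 over 18 mice (rho = -0.775, -0.618 and -0.783). In the 13 mice with little Myl7 r was -0.869, -0.759 and -0.731.

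Hand2 had a slope of -0.24 (SE 0.126), which ran from -0.32 to -0.09 with a mouse left out. It was -0.30 without WWP2Mut/Mut 62-1, -0.28 without WT 45-1 and -0.42 without the 6 mice above 5 times the median Myl7. Hey2 gave -0.08 (SE 0.0930), Irx4 0.07 (SE 0.0800), Nkx2-5 0.08 (SE 0.0562) and Nr2f2 0.13 (SE 0.0771). The correlation of Nr2f2 with coverage was r = 0.40 and rho = 0.598. On log2(TPM + 1) the slopes of Nkx2-5, Irx4 and Nr2f2 turned to -0.13, -0.12 and -0.08 in limma. That fit changed scale, normalisation and method together, and which of them turned the slopes was not tested.

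**Figure D4:**
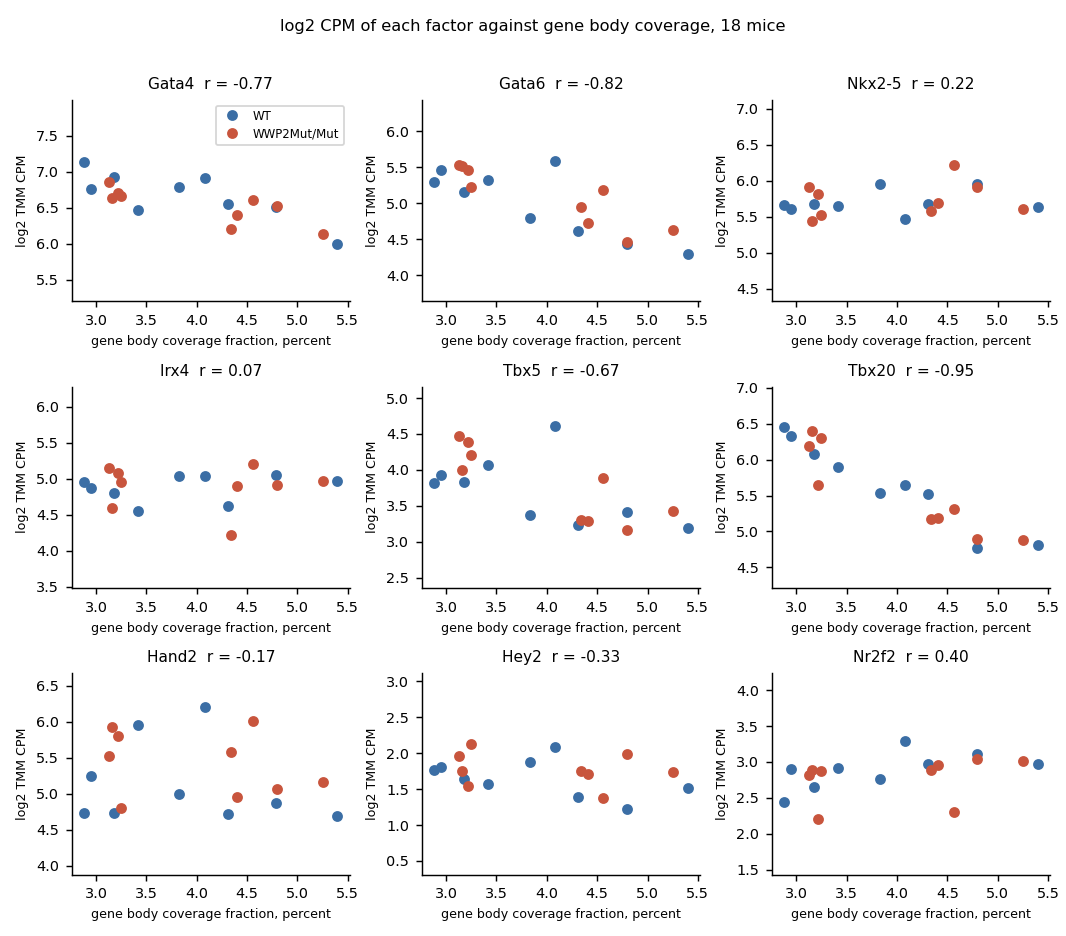
Log2 CPM of each factor (vertical axis, the same 2.8-unit height in all panels) against the gene body coverage fraction in percent (horizontal axis) in 18 mice, WT blue and WWP2Mut/Mut red, with Pearson r above each panel. Tbx20 falls along the whole range in both genotypes (r = -0.95), while Nkx2-5 and Irx4 show no such fall (r = 0.22 and 0.07).

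Other properties of the libraries and tissue moved with coverage. The share of TPM removed by the authors as mitochondrial and rRNA genes ranged from 17.4% to 32.8% and fell with coverage (r = -0.733). In summed TPM over 18 mice, r with coverage was 0.665 for cardiomyocyte markers, -0.617 for fibroblast markers and -0.545 for endothelial markers, and -0.586 for conduction system and -0.539 for smooth muscle and pericyte markers. On counts these directions did not all hold: in edgeR 3 of 8 cardiomyocyte markers were called higher and 2 lower (median slope 0.06), 1 of 6 fibroblast markers was called lower (median -0.14), 2 of 6 endothelial markers were called higher and 0 lower (median 0.07), 4 of 5 arterial endothelial markers were called higher (median 0.37), and 5 of 6 liver markers had an unadjusted p under 0.05 (median 0.97, 1 called higher), against a median of 0.06 over all genes. The longest annotated transcripts of the members had 9091 (Tbx20), 3942 (Tbx5), 3784 (Gata6), 3400 (Gata4), 4222 (Nr2f2), 2589 (Irx4), 2550 (Hey2), 2351 (Hand2) and 1525 (Nkx2-5) bases. Over 17166 protein-coding genes the median was 2964 bases, with 4325 among the genes that fell and 1862 among those that rose with coverage. The part of RNA quality, transcript length or cell makeup in the members' slopes was not tested.

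The partners of the members followed coverage often. Of 31 tested, 14 fell and 3 rose as coverage rose (edgeR, FDR under 0.05), beside the 16.1% and 14.8% over all genes. Those named here were picked after their slopes were seen. Myocd, the serum response factor co-activator of muscle, had a slope of -0.83 (SE 0.0614, adjusted p = 3.19e-08), Tead1, the DNA-binding partner of YAP, -0.89 (SE 0.0930, adjusted p = 1.01e-06), and Zfpm2 (FOG2), the GATA4 co-factor, -0.76 (SE 0.0933, adjusted p = 5.81e-06). Mef2a (-0.36) and Srf (-0.22), which bind DNA with GATA4 and NKX2-5 at muscle genes, fell too, whereas Cdk9, a kinase of transcription elongation (0.41), Smarcd3, the heart's BAF60c subunit (0.34), and Tcf3, an E-protein partner of HAND2 (0.22), rose.

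Target genes of the myocyte went both ways: 12 of 30 fell and 10 rose, on counts scaled by TMM, beside 16.1% and 14.8% over all genes. Of the genes called, those with the steepest slopes in each direction, picked after they were seen, were Slc8a1, the sodium-calcium exchanger (-1.62), Kcnd2, a potassium channel (-0.80), and Chrm2, a muscarinic receptor (-0.57), and Nppb (0.58) and Nppa (0.49), natriuretic peptides, and Tnni3, cardiac troponin I (0.43). Among 22 paralogs 3 rose, Tbx2 (0.45), Gata2 (0.27) and Hes1 (0.18), and 0 fell, and among 23 other lineage factors 5 fell, including Klf15 (-0.60) and Prox1 (-0.56), and 3 rose (Sox17, Foxc1 and Foxc2).

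The members varied together in part. Over the 36 pairs, 8 had a correlation of log2 CPM that passed a permutation test with Benjamini-Hochberg adjustment over the pairs, and all 8 were positive: Gata6 with Tbx5 (r = 0.902, rho = 0.893), Gata6 with Tbx20 (0.818, rho = 0.804), Gata4 with Tbx20 (0.727, rho = 0.750), Tbx5 with Tbx20 (0.662, rho = 0.645), Gata4 with Gata6 (0.659, rho = 0.637), Gata6 with Hand2 (0.629, rho = 0.645), Tbx5 with Hand2 (0.600, rho = 0.591) and Gata4 with Tbx5 (0.599, rho = 0.554). By rank, the pairs Tbx5 with Hand2 (adjusted p = 0.0567) and Gata4 with Tbx5 (adjusted p = 0.0853) did not pass the permutation test. Without the 2 mice farthest from the median of the first gene, the 8 values of r ran from 0.50 to 0.914. Irx4, Nkx2-5, Hey2 and Nr2f2 were in none of the 8 pairs. The lowest r was -0.444, for Nkx2-5 with Nr2f2.

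Of the 8 pairs, 6 join Gata4, Gata6, Tbx5 and Tbx20 among themselves. On residuals from genotype, lane, RNA concentration and Myl7, without coverage, 6 pairs passed: Gata6 with Tbx20 (0.874), Gata6 with Tbx5 (0.816), Gata4 with Tbx20 (0.812), Tbx5 with Tbx20 (0.682) and Gata4 with Gata6 (0.641) were positive and Nkx2-5 with Hey2 (-0.631) was negative. With coverage added to these terms, the r of Gata6 with Tbx5 was 0.583, that of Gata4 with Tbx20 0.580, and those of Gata6 with Tbx20 (0.0648), Gata4 with Gata6 (-0.0652), Gata4 with Tbx5 (-0.0654) and Tbx5 with Tbx20 (-0.0012) were near 0. The pairs that passed with coverage were Gata6 with Hand2 (0.799) and Nkx2-5 with Nr2f2 (-0.799), each with an adjusted permutation p of 0.00126. Shuffled residuals are only approximately exchangeable, and the shuffling did not count the terms fitted. The p values on residuals are therefore too small, and these passes are not firm. Coverage was chosen after the members were seen to be high together in mice with low coverage. A lower r among them with coverage in the model restates that. The scale also mattered. On log2 CPM the median r of the 36 pairs was 0.0953 and 22 were positive. On log2(TPM + 1) the median was 0.625 and 36 of 36 were positive, and the reason was not tested.

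**Figure D5:**
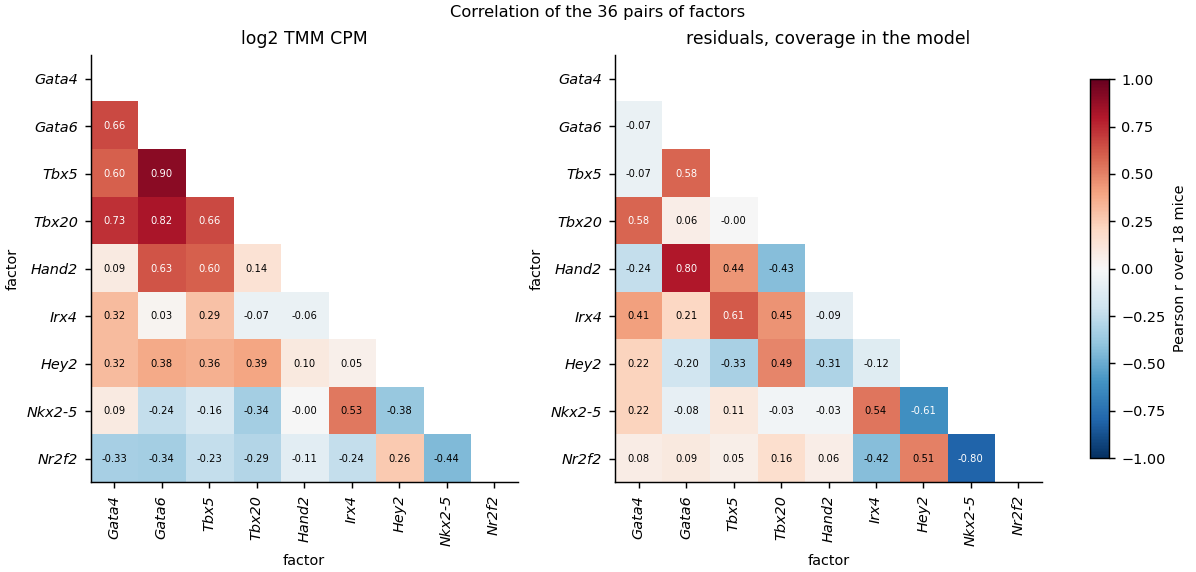
Pearson r over 18 mice (colour, from -1 in blue to 1 in red, value printed) for the 36 pairs of factors, on log2 CPM (left) and on residuals with coverage in the model (right). The block of Gata4, Gata6, Tbx5 and Tbx20 is positive at the left (0.60 to 0.90) and runs from -0.07 to 0.58 at the right.

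Among 11209 genes with over 1 TPM in at least 9 mice, those whose log2 CPM were most like each member over the 18 mice differed from member to member. Tbx20 was matched most closely, by Kif16b, a kinesin (r = 0.984), Fgd4 (0.979) and Top1, DNA topoisomerase I (0.978), which themselves had r of -0.954, -0.905 and -0.922 with coverage. Gata6 and Tbx5 shared Pip4k2c (0.952 and 0.911) and Anxa11, an annexin (0.951 and 0.904), beside Bsdc1 for Gata6 (0.958) and Gata6 itself for Tbx5 (0.902). Gata4 was most like Dusp8, a MAP kinase phosphatase (0.918), Hs6st1 (0.914) and Gtf2ird1 (0.904). Hand2 was most like Rgs2, a brake on G-protein signalling (0.901), Cebpb, a stress-responsive leucine zipper factor (0.890), and Dnajb1, a heat shock co-chaperone (0.887). Nr2f2 was most like Shank3 (0.893), Jag2, a Notch ligand (0.876), and AI838599 (0.866). Nkx2-5 was most like Elp5 (0.860), Ctdnep1 (0.845) and the NR2F paralog Nr2f6 (0.836), Irx4 like Mfsd12 (0.865), Tab1 (0.752) and Ccdc9b (0.735), and Hey2 like Kif26a (0.761), Ugdh (0.755) and Gopc (0.728). These are descriptions of 18 libraries that share depth, lanes and coverage, with no test.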

How the data were processed

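Poly(A) RNA from the left ventricle of 18 mice was sequenced from directional libraries over 4 lanes. According to the methods and the submitters' processing notes, the authors aligned reads to the mouse genome with STAR 2.5.2b, ran RSEM 1.2.31 on the Ensembl gene models, removed rRNA and mitochondrial genes and deposited expected counts and TPM values that were not pooled over mice. The deposited sample table also gives RNA concentration, lane and a gene body coverage fraction for each library, shown here as a percent. Deposited expected counts were rounded to whole numbers.

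Here, genes with a total count above 1 (24804 of 51435) were tested with edgeR 4.0.16 (quasi-likelihood F test, TMM normalisation) in R 4.3.3, with lane and centred RNA concentration in the model, the covariates of the study's own design, and Benjamini-Hochberg adjustment over all genes. DESeq2 1.42.0, and limma 3.58.1 on log2(TPM + 1) with a pseudocount of 1, were alternatives. WT 43-3 has a listed RNA concentration of 1.68 ng/µl, against 88.6 to 320.9 in the others, and was kept as deposited. Standard errors of edgeR fits were computed from its fold change and F statistic. Intervals use a t quantile whose degrees of freedom were recovered from edgeR's p values, and are approximate. Exact two-sided permutation tests used all 48620 divisions of the mice into 9 and 9, correlations used 100000 permutations (scipy 1.17.1), and log2 CPM used a prior count of 1. The edgeR fits and the permutation tests were checked on simulated data. The named genes were the 9 members, Wwp2, Myl7, listed genes that passed a test or else were most abundant, and the 3 genes most like each member, and other names were chosen after their values were seen. The members and gene lists were chosen with earlier results of these data known. Each mouse is 1 library and each group has 9. Library totals ran from 24566994 to 37451087 counts. Results for some listed genes are not reported here.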

Additional observations from a re-analysis of the deposited data

Results flagged for a closer look

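Among the 18 groups of 9 mice (9 members in 2 genotypes), 1 held a mouse far from the others. Nr2f2 in WT 45-1 was 3.76 TPM and the next WT hearts had 2.54 TPM, a gap of 0.570 of the group's range above Dixon's critical value for 9 samples. Chance marks about 5% of such groups. The same mouse had the highest Myl7 (338 TPM) and Alb (113 TPM) of all hearts, and the part of either in this value was not tested.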

How the results depend on the processing

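The count of members called between genotypes was 0 under all 11 other settings and with each of the 18 mice left out (0 to 0). Several signs turned, also those of Nkx2-5 and Nr2f2, whose estimates in the main fit were 0.17 and -0.19. In limma the log2 fold changes were -0.16 for Gata6, -0.0056 for Nkx2-5, -0.10 for Irx4, -0.22 for Tbx5 and -0.078 for Hey2. With Myl7 added, Gata6 was -0.018 and Tbx5 -0.037, and with Alb added they were -0.068 and -0.14, with Tbx20 at -0.69, Gata4 at -0.24 and Nr2f2 at -0.065. Without the 6 mice above 5 times the median Myl7, Gata6 was -0.076, Nkx2-5 -0.0072, Irx4 -0.059, Tbx5 -0.12 and Nr2f2 0.063, and with filterByExpr Tbx5 was -0.0020. Leaving out 1 mouse at a time gave -0.11 to 0.16 for Gata6, -0.15 to 0.16 for Tbx5, -0.083 to 0.11 for Hey2, -0.078 to 0.12 for Irx4, 0.036 to 0.22 for Nkx2-5 (lowest without WWP2Mut/Mut 53-1), -0.22 to -0.067 for Gata4, -0.46 to -0.13 for Tbx20, 0.23 to 0.53 for Hand2 and -0.31 to -0.088 for Nr2f2. Without covariates Nkx2-5 was 0.057. Nr2f2 had an unadjusted p of 0.00804 in limma (adjusted p = 0.807).

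For the Myl7 slope, DESeq2 called 1 member (Tbx5), and leaving out a mouse gave 0 to 0. Without the 6 mice 0 members had an unadjusted p under 0.05 (edgeR). The slopes in that fit were Gata4 -0.042, Gata6 -0.044, Nkx2-5 0.046, Irx4 -0.0011, Tbx5 -0.17 and Tbx20 -0.24. Nkx2-5 was 0.033 in limma, 0.00055 without covariates and 0.0025 with lane alone (-0.016 to 0.0073 with a mouse left out), and Nr2f2 was 0.031 in limma, 0.0046 with coverage added, 0.0062 on the mean of Myl4, Sln and Bmp10, and -0.068 to 0.025 with a mouse left out. The members correlated with Myl7 numbered 0 by rank and 0 in the 13 mice with little Myl7.

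For coverage, limma turned Nkx2-5 (-0.13), Irx4 (-0.12) and Nr2f2 (-0.085). Pairs of members that passed numbered 25 on log2(TPM + 1). On residuals they numbered 6 without and 2 with coverage, by p values that are too small. The cause of these changes was not tested.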
